A study of Homo sapiens with 24 samples.

Results

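The comparison asked whether cells of 2 lines changed the same transcripts when GCDH was knocked down. It is the effect of small interfering RNA (siRNA) against GCDH in SK-Hep1 cells minus its effect in the cells labelled SKBR3, and it uses 12 of the 24 libraries of the series, 3 in each of 4 groups. The groups were SK-Hep1 cells with control siRNA (siControl), SK-Hep1 cells with GCDH siRNA (siGCDH), and the same pair for SKBR3. The labels place SK-Hep1 in liver and SKBR3 in breast. RNA was taken 48 hours after transfection from triplicate wells, and all 12 libraries were made by poly(A) selection with a directional kit. The wells may be technical replicates, so the p-values measure the spread between wells. All 16480 genes averaging 1 TPM or more (TPM is a transcript's share of a library, corrected for its length) over the 12 libraries were compared, both those that differed between the lines and those that did not.

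The product of GCDH, glutaryl-CoA dehydrogenase, works in mitochondria on the shared route by which lysine and tryptophan are broken down. The series names NRF2 in its title. NRF2, the product of NFE2L2, is a transcription factor that KEAP1 marks for degradation in unstressed cells and that turns on genes of glutathione, NADPH and quinone metabolism. Other stress routes read beside it are p53, which answers DNA and nucleolar damage, ATF4, which answers amino acid shortage and protein folding stress, and NF-kB, which drives inflammatory genes.

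Many defining transcripts of the labelled tissues were under 1 TPM. In the libraries labelled SKBR3, 8 of 19 breast epithelial markers were under 1 TPM in every siControl library, among them GRB7, KRT19, KRT7, ELF3 and ESRP1. The other 11 averaged 1 TPM or more there, among them TFAP2A (34.0 TPM), ERBB2 (25.5 TPM) and CDH1 (2.49 TPM). In SK-Hep1 siControl libraries 4 of the 19 were under 1 TPM throughout, CDH1 and ESRP1 among them. The 19 markers summed to 107 to 113 TPM in siControl libraries labelled SKBR3, against 6535 to 6805 TPM in those of SK-Hep1. Most of the SK-Hep1 sum came from the keratins KRT8, KRT18 and KRT19, with means of 2317, 2687 and 1262 TPM. In SK-Hep1, 14 of 16 hepatocyte markers, albumin among them, and 11 of 14 endothelial markers were under 1 TPM in every siControl library. The cells are therefore called SKBR3-labelled, and no tissue is read into either line.

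TPM values hide sequencing depth, which is unknown here, and in these bulk libraries fewer cells of a kind cannot be told apart from less RNA per cell. Replicates correlated at r = 0.977 to 0.986 on the log2 scale. Some features of whole libraries moved with siGCDH, and more in SKBR3-labelled cells. Rows that are not protein-coding genes and reached 1 TPM numbered 2185 to 2227 with siControl and 2624 to 2728 with siGCDH in SK-Hep1, and 2777 to 2791 against 4117 to 4184 in SKBR3-labelled cells. Mitochondrially encoded transcripts took 5.62 to 6.33% of TPM with siControl and 5.79 to 6.11% with siGCDH in SK-Hep1, and 1.99 to 2.12% against 4.79 to 5.0% in SKBR3-labelled cells. The summed level of 20 histone genes whose messages normally lack a poly(A) tail was 166 to 194 TPM with siControl and 79.3 to 88.2 TPM with siGCDH in SK-Hep1, and 108 to 123 against 150 to 157 TPM in SKBR3-labelled cells. The part of these features in the results on single genes was not tested.

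**Figure D1:**
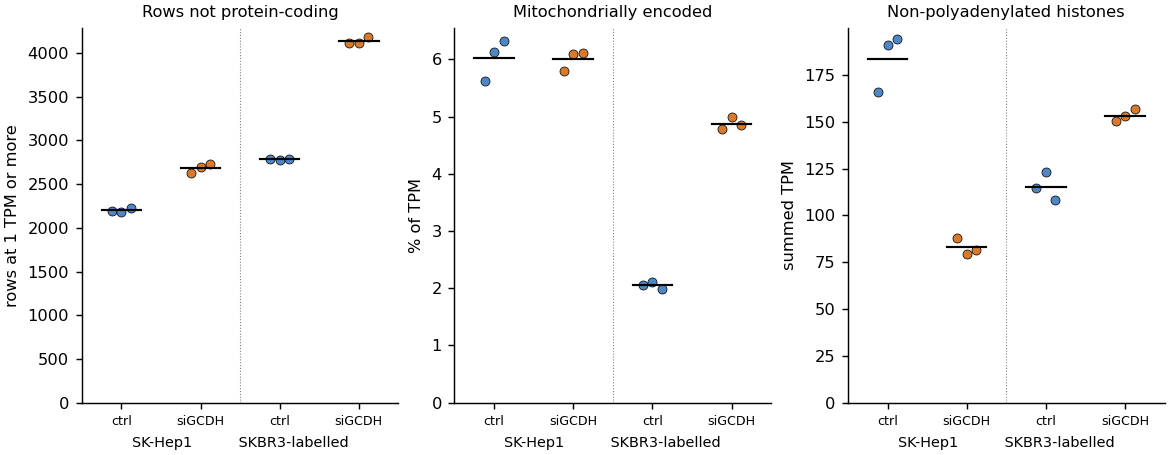
Points are the 12 libraries and bars the means of 3, plotted for each group as the number of rows at 1 TPM or more that are not protein-coding, the percentage of TPM from mitochondrially encoded transcripts, and the summed TPM of 20 histone genes. The siGCDH libraries of SKBR3-labelled cells lie above their controls in all 3 panels, and those of SK-Hep1 lie below their controls for histones.

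The targeted transcript was lower with siGCDH in both lines. GCDH (chromosome 19, 12891026 to 12914207, plus strand, hg38) stood in SK-Hep1 at 9.79, 9.46 and 8.97 TPM with siControl and 2.77, 3.25 and 2.25 TPM with siGCDH. In SKBR3-labelled cells it stood at 22, 22.6 and 22.8 TPM with siControl and 5.6, 4.61 and 7.6 TPM with siGCDH. No siGCDH library reached a siControl library of its line, a separation of groups seen for 57.1% of all genes in SK-Hep1 and 65.9% in SKBR3-labelled cells. On the log2(TPM + 1) scale used for all effects below, the effect was -1.48 in SK-Hep1 (limma adjusted p = 6.63e-06) and -1.78 in SKBR3-labelled cells (limma adjusted p = 1.44e-06). The difference between them was 0.30 (95% interval -0.14 to 0.75, adjusted p = 0.262). Exact two-sided permutation tests gave p = 0.1 within each line, the smallest that 3 against 3 libraries allow, and 0.67 for the difference, where 0.005 is the smallest. Without the third siGCDH library of SKBR3-labelled cells, the one with the highest GCDH, the difference was 0.47 and passed (limma adjusted p = 0.0456). It also passed with a pseudocount of 5 (0.44, adjusted p = 0.0138) and with quantile normalization (0.82, adjusted p = 0.0144).

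The siGCDH effect differed between the lines for 6504 of 16480 genes, 39.5% (limma, adjusted p under 0.05). It was higher in SK-Hep1 for 2384 genes (14.5%) and lower for 4120 (25%). The same direction was called in both lines for 3860 genes that rose (23.4%) and 1409 that fell (8.55%), and opposite directions for 695 (4.22%). The rises in both were 65.9% of the SK-Hep1 rises and 51.0% of the SKBR3-labelled ones, and the falls in both were 50.2% and 58.3% of the falls. Because a missed threshold is not likeness, closeness was read from the interval of the difference. The difference was not called for 2653 of the shared rises (16.1% of all genes) and 869 of the shared falls (5.27%). The interval lay wholly within 0.5 log2 units of 0 for 1590 of the 3860 shared rises (41.2%) and for 758 of the 1409 shared falls (53.8%). Across genes, the effects in the lines correlated at r = 0.412 over all 16480 genes and at r = 0.553 over the 10790 protein-coding genes with a mean of 5 TPM or more. All these genes come from the same 12 libraries.

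**Figure D2:**
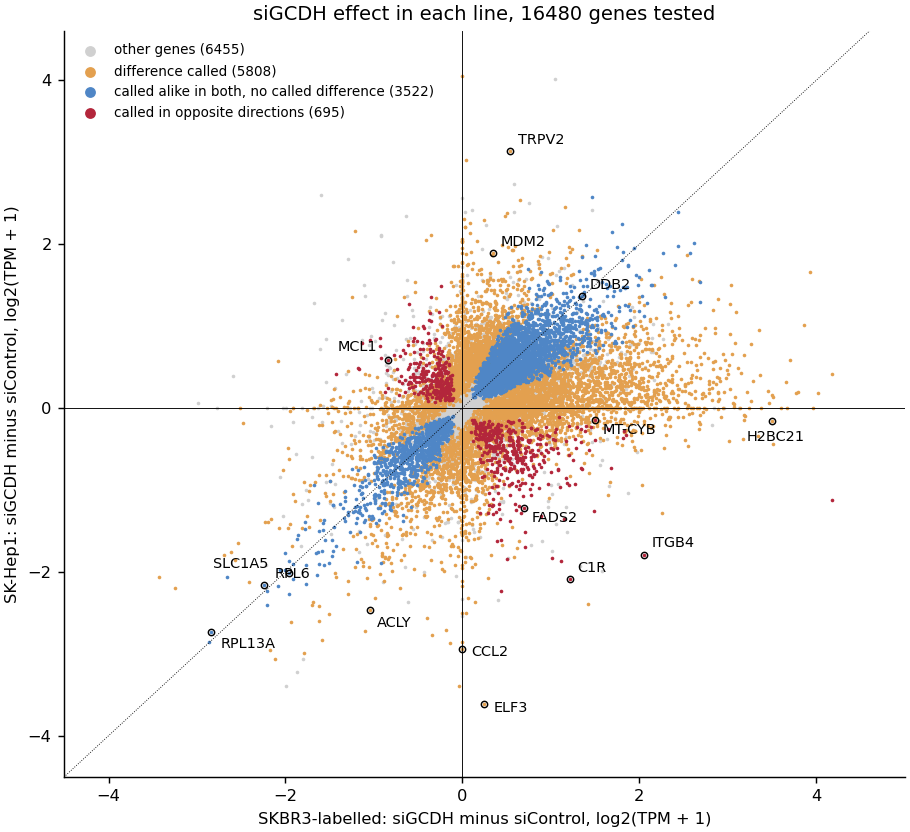
Each point is 1 of 16480 genes, placed by its siGCDH effect in SKBR3-labelled cells (horizontal) and in SK-Hep1 (vertical), both as siGCDH minus siControl in log2(TPM + 1), with the line of equal effects dotted. RPL13A and RPL6 lie far down on that line, the 695 genes called in opposite directions lie where the effects differ in sign, and a band of genes stretches to the right at an SK-Hep1 effect near 0.

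The genes did not centre on 0. The median effect over all genes was 0.15 in SK-Hep1 and 0.26 in SKBR3-labelled cells, and the median difference was -0.11. It was -0.38 for genes at 1 to 5 TPM and 0.09 for those at 100 TPM or more. Scaling the libraries to a common median, taken over genes of at least 5 TPM, moved the median difference to 0.01 and the calls to 3362 above and 3198 below, and the shared calls to 2170 rises and 2221 falls. Median scaling kept 99.2% of the differences above in SK-Hep1, 77.1% of those below, all 1409 shared falls, 56.2% of the shared rises and 54.2% of the opposite calls. Quantile normalization gave 3203 above and 2874 below. It kept 88.5% of the differences above, 64.8% of those below, 1340 of the 1409 shared falls, 50.9% of the shared rises and 44.6% of the opposite calls. List medians below are therefore to be read beside the medians of all genes.

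Among the largest shared changes were falls of transcripts for the ribosomal proteins RPL13A and RPL6 and the amino acid transporters SLC7A5 and SLC1A5. RPL13A (chromosome 19, 49487554 to 49492308, plus strand), a protein of the large ribosomal subunit, stood in SK-Hep1 at 4184, 4181 and 4036 TPM with siControl and 674, 602 and 589 TPM with siGCDH. Its level in SKBR3-labelled cells was 4121, 3981 and 3938 TPM with siControl and 556, 552 and 575 TPM with siGCDH. Every siGCDH library of both lines lay far below every control. The effects were -2.73 and -2.84, and the difference was 0.10 (95% interval -0.04 to 0.24, limma adjusted p = 0.225). The sign of that difference depended on the scaling: it passed at 0.22 with median scaling (adjusted p = 0.0474) and at -0.24 with quantile normalization (adjusted p = 0.00361). RPL6, another large-subunit protein, stood in SK-Hep1 at 3552, 3574 and 3701 TPM with siControl and 847, 782 and 797 TPM with siGCDH. In SKBR3-labelled cells RPL6 stood at 4125, 4087 and 4235 TPM with siControl and 888, 889 and 857 TPM with siGCDH. Its effects were -2.16 and -2.24, again with groups far apart, and its difference of 0.08 (adjusted p = 0.177) likewise passed at 0.21 with median scaling and at -0.29 with quantile normalization. Both genes have many processed pseudogene copies, among which reads are hard to divide, so their levels are uncertain, as are those of other ribosomal protein genes. In A375 melanoma cells of the same kit, fitted on their own 6 libraries, the same genes had effects of 0.04 and 0.02.

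Most other ribosomal protein genes moved less. Of 54 tested, 41 fell in SK-Hep1 and 43 in SKBR3-labelled cells, 36 of them in both (background 8.55%), and the medians were -0.18 and -0.26. RPS14, of the small subunit, fell further in SKBR3-labelled cells (from 3255 ± 276 to 501 ± 15.7 TPM) than in SK-Hep1 (from 2413 ± 157 to 695 ± 30.0 TPM), all given as mean ± SD over 3 libraries. The difference for RPS14 was 0.90 (limma adjusted p = 2.32e-05). RPL14 did likewise, with effects of -0.72 in SK-Hep1 and -1.20 in SKBR3-labelled cells (difference 0.48, adjusted p = 5.97e-05). With quantile normalization the count of the 54 that fell in both was 12 in place of 36.

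Genes outside the ribosome fell in both lines too. NOLC1, a nucleolar phosphoprotein that helps ribosome assembly, went from 97.6 ± 3.85 to 17.7 ± 1.76 TPM in SK-Hep1 and from 339 ± 6.27 to 72.8 ± 2.11 TPM in SKBR3-labelled cells, effects of -2.40 and -2.21. The orphan nuclear receptor NR2F6 went from 32.8 ± 1.12 to 6.18 ± 0.286 TPM and from 41 ± 2.42 to 8.09 ± 0.539 TPM, effects of -2.24 and -2.21. MEIS2, a homeobox transcription factor, had effects of -1.98 and -2.06, and DEPP1, a FOXO-regulated gene, -2.17 and -2.09. None of these 4 had a called difference, and their 95% intervals lay between -0.41 (DEPP1) and 0.49 (MEIS2). With quantile normalization the differences of MEIS2 (0.70, limma adjusted p = 0.00926) and NR2F6 (0.35, adjusted p = 0.0291) passed. That of DEPP1 passed at 0.85 with a pseudocount of 0.1 and at -0.80 with a pseudocount of 5, and that of NOLC1 passed at -0.26 without the second siGCDH library of SK-Hep1.

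Some amino acid transporters and metabolic enzymes, named as the leading shared members of their lists, were among the shared falls. SLC7A5, the light chain of the large neutral amino acid exchanger, stood in SK-Hep1 at 56.4, 60.0 and 58.8 TPM with siControl and 14.8, 16 and 13.8 TPM with siGCDH. SKBR3-labelled libraries held it at 125, 125 and 123 TPM with siControl and 33.5, 29.6 and 33.9 TPM with siGCDH. The groups did not overlap in either line, and the effects were -1.91 and -1.91 with a difference of 0.01 (95% interval -0.20 to 0.21). SLC1A5, a glutamine carrier, went from 109.9 ± 1.33 to 26.5 ± 2.16 TPM and from 223 ± 4.07 to 56.8 ± 5.61 TPM. Aldose reductase AKR1B1 had effects of -1.13 and -1.33, the glycolytic enzyme LDHA -0.83 and -0.73, and the executioner caspase CASP6 -1.41 and -1.58. Their differences did not pass, but that of AKR1B1 did with median scaling (0.32), with a pseudocount of 5 (0.24) and without the first siControl (0.24) or the first siGCDH (0.26) library of SK-Hep1. That of LDHA passed without the first siControl library of SK-Hep1 (-0.13) and without mitochondrial rows (-0.15), and that of CASP6 with quantile normalization (0.44).

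Sequence was also read beside the effects. In 3' untranslated regions (3' UTRs) of GENCODE 29, all 7-base words held by at least 200 of 10644 genes were ranked, 13739 words in all. The rank was by the median effect of the genes that hold a word minus that of the genes that do not. Effects were first adjusted for UTR length and base composition. The 7-mers TCCTCAA and ATCCTCA ranked lowest and second lowest in SK-Hep1 and again in SKBR3-labelled cells. They overlap and together spell the 8-mer ATCCTCAA. Adjusted medians of holders minus those of the other genes were -0.21 and -0.18 in SK-Hep1, and -0.17 and -0.15 in SKBR3-labelled cells. The holders' own medians, not adjusted, were -0.03 and -0.01 in SK-Hep1, and 0.03 and 0.04 in SKBR3-labelled cells. For the difference between the lines they ranked 1607 and 1752, and in A375 cells 3821 and 1825, where ACTGAGA, ranked 4391 and 5066 here, came first. Only the sense strand of each UTR was searched.

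The words are shown for some of the named genes that hold one in a UTR, 5′ to 3′ on the transcript, with the searched word in capitals. Named genes that rose in SK-Hep1 hold a word too, among them MDM2, XIAP, STC2 and ALDH7A1, and are not shown. NOLC1 (chr10:102162815-102162841, plus strand) and MEIS2 (chr15:36891410-36891436, minus) fell in both lines, as did RPS14 (chr5:150444262-150444285, minus) and CASP6 (chr4:109688805-109688831, minus). MCL1 (chr1:150576708-150576735, minus), which holds the 8-mer, rose in SK-Hep1 and fell in SKBR3-labelled cells. FBN1 (chr15:48641234-48641261, minus), with the 8-mer too, did the reverse. The FBN1 gene spans 48408306 to 48645849, so this site lies near its 5′ end. It is in the longest UTR annotated for any FBN1 transcript, not at the 3′ end of the gene. Coordinates are GRCh38.
NOLC1: tatgtatttcATCCTCAtttattgggt
MEIS2: tgggcagcttTCCTCAAcacaaaaaaa
RPS14: acaagatTCCTCAAaatattttct
CASP6: gagaaacaaaATCCTCAggaaattaga
MCL1: gaatatggatATCCTCAAttcttaagac
FBN1: aaatttaggcATCCTCAAgtttcttccc

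Both 7-mers were picked by rank on the SK-Hep1 effects of these same genes. Raised shares among falling genes are therefore partly set by that choice. Of all 10644 genes searched, 18.6% held either 7-mer. The share was 31.0% of the 1310 genes that fell in both lines and 50.4% of the 121 that fell by at least 1 log2 unit in both. It was 11.9% of the 2934 genes that rose in both, and 6 of 94 (6.38%) that rose by at least 1. Among the 597 genes called in opposite directions it was 14.9%. Genes with the 8-mer had median effects of -0.10 in SK-Hep1 and 0.00 in SKBR3-labelled cells, those with a 7-mer alone -0.0024 and 0.06, and those with neither 0.17 and 0.21. Holders had longer UTRs, with medians of 3211, 2975 and 1112 nt in the same order, which is why the ranks used adjusted effects. RPL13A, RPL6, NR2F6 and DEPP1 hold neither word in the longest annotated UTR, which may not be the one these cells use. ATCCTCA occurs in 13 of 16 annotated GCDH transcripts, outside the UTR searched. The sources used here do not give the siRNA sequences, and pairing of the siRNA seed with these words was not tested.

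**Figure D3:**
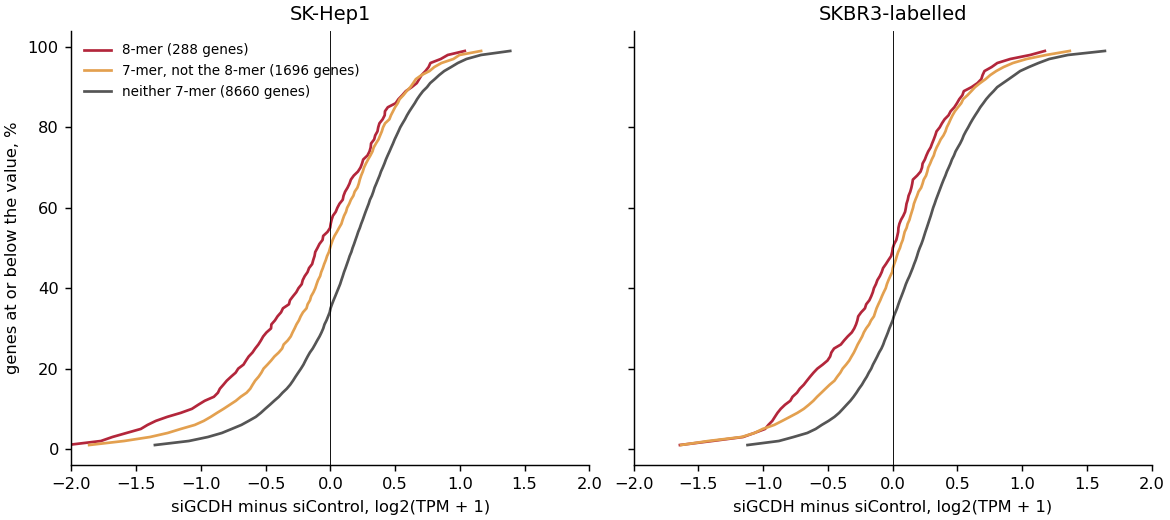
Curves give the percentage of genes at or below each siGCDH effect (log2(TPM + 1), horizontal) for 288 genes whose 3' UTR holds the 8-mer, 1696 with a 7-mer only and 8660 with neither, in SK-Hep1 and in SKBR3-labelled cells. In both panels the curve of the 8-mer genes lies to the left of the curve of genes with neither word. The words were picked by the SK-Hep1 effects of these same genes.

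The largest shared rises were in genes with low control levels. MST1, encoding the hepatocyte growth factor-like protein, went from 8.79 ± 4.23 to 36.3 ± 2.61 TPM in SK-Hep1 and from 6.39 ± 1.76 to 43.4 ± 1.18 TPM in SKBR3-labelled cells, effects of 2.01 and 2.61. CIART, a repressor in the circadian clock, had effects of 1.81 and 1.80, and C21orf58 1.97 and 1.75. ACAP1, a GTPase-activating protein of membrane recycling, had 1.89 and 2.57, and the long noncoding LINC02298 and LINC02321 had 2.40 and 1.96 in SK-Hep1 and 2.44 and 1.94 in SKBR3-labelled cells. None had a called difference, but the 95% intervals were wide, -1.49 to 0.12 for ACAP1 and -1.44 to 1.48 for LINC02321. Without the third siControl library of SK-Hep1 the difference of ACAP1 passed (-0.98).

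Kinetochore and spindle genes were among the shared rises. Of 35 mitosis and spindle genes 18 rose in both (against 23.4% of all genes) and 2 fell in both (8.55%), 13 and 5 with median scaling, with medians of 0.36 in SK-Hep1 and 0.24 in SKBR3-labelled cells. NDC80, a kinetochore protein, stood in SK-Hep1 at 20.9, 17.7 and 18.1 TPM with siControl and 44, 43.9 and 44.6 TPM with siGCDH. In SKBR3-labelled cells NDC80 stood at 32, 29.1 and 34.4 TPM with siControl and 84.2, 81.7 and 81.3 TPM with siGCDH. The effects were 1.19 and 1.35 with no overlap in either line. The spindle kinesin KIF23 had effects of 0.97 and 1.07. Of 37 replication genes 5 rose in both and 6 fell in both, against 23.4% and 8.55% of all genes, and with median scaling these were 3 and 12. E2F1, the S phase transcription factor, had effects of 0.77 and 0.66 (a difference that passed only with median scaling, 0.24), and thymidylate synthase TYMS 0.68 and 0.60. Cyclin B1 differed: CCNB1 rose in SK-Hep1 (0.31) and fell in SKBR3-labelled cells (-0.29, difference 0.60, limma adjusted p = 8.55e-05). RRM2, a subunit of ribonucleotide reductase, did the same (0.32 and -0.60, difference 0.92, adjusted p = 1.93e-06), whereas UHRF1, which maintains DNA methylation, fell more in SK-Hep1 (-1.53 and -0.36).

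Targets of p53 rose in SK-Hep1, and how many also rose in SKBR3-labelled cells depended on the scaling. Of 28 genes tested 25 rose in SK-Hep1 (background 35.5%) and 21 in SKBR3-labelled cells (45.9%), 19 of them in both. The medians were 1.06 and 0.43, and the difference was above in SK-Hep1 for 18 and below for 3, against 14.5% and 25% of all genes. With median scaling these became 20 and 3, but in SKBR3-labelled cells 12 rose and 6 fell, and 12 rose in both. With quantile normalization they were 19 and 2, while 10 rose and 4 fell in SKBR3-labelled cells, with a median of 0.10 there, and 9 rose in both. MDM2 (chromosome 12, 68808176 to 68850686, plus strand), the ubiquitin ligase that degrades p53, stood in SK-Hep1 at 58.5, 55.9 and 68.6 TPM with siControl and 213, 227 and 246 TPM with siGCDH. In SKBR3-labelled cells MDM2 stood at 42.6, 41.8 and 40.1 TPM with siControl and 61.2, 47 and 52 TPM with siGCDH. The groups did not overlap in either line, and the effects were 1.89 and 0.35, a difference of 1.54 (SE 0.14, limma adjusted p = 1.48e-05). The smaller rise in SKBR3-labelled cells did not pass with median scaling (0.11, adjusted p = 0.338).

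The p53 list held even and uneven members. SESN2, a stress-induced inhibitor of mTORC1, stood in SK-Hep1 at 7.85, 8.0 and 8.46 TPM with siControl and 30.2, 31.1 and 28.2 TPM with siGCDH. In SKBR3-labelled cells it stood at 47, 47.8 and 48.9 TPM with siControl and 52.8, 49.4 and 48.8 TPM with siGCDH, groups that overlap, and the difference was 1.69 (limma adjusted p = 3.66e-07). CDKN1A, the cell cycle inhibitor p21, chosen after its values were seen, went from 86.5 ± 1.76 to 219 ± 2.06 TPM in SK-Hep1 and from 18.6 ± 1.68 to 30.1 ± 0.271 TPM in SKBR3-labelled cells (difference 0.65, adjusted p = 0.000124). DDB2, a DNA damage sensor, rose alike (from 41 ± 1.22 to 107 ± 6.42 TPM and from 19.7 ± 3.76 to 51.2 ± 1.5 TPM, difference 0.02, 95% interval -0.32 to 0.35), as did the death receptor TNFRSF10B (1.08 and 0.96).

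Of 10 anti-apoptotic genes tested, 5 had a difference above in SK-Hep1, 2 below and 3 none that was called, against 14.5% of all genes above and 25% below. MCL1, an anti-apoptotic BCL2 relative, stood in SK-Hep1 at 79.6, 78.2 and 81.9 TPM with siControl and 115, 119.5 and 126 TPM with siGCDH. Its level in SKBR3-labelled cells was 74.8, 80.3 and 78.6 TPM with siControl and 41.3, 45.4 and 42.7 TPM with siGCDH. Controls were alike, siGCDH libraries lay above them in SK-Hep1 and below them in SKBR3-labelled cells, and the difference was 1.42 (limma adjusted p = 3.77e-07). XIAP, an inhibitor of caspases, had effects of 0.91 and -0.20 (difference 1.11, adjusted p = 5.42e-05), and BCL2L1, the gene of BCL-xL, 0.68 and -0.16 (difference 0.83, adjusted p = 7.32e-05), of which only the SK-Hep1 values passed. BIRC5 and BIRC2 rose in both, by 0.74 and 0.68 in SK-Hep1 and by 0.60 and 0.48 in SKBR3-labelled cells, without a called difference, but with median scaling both differences passed (0.27 and 0.31). Of 21 pro-apoptotic genes 6 were above and 4 below (8 and 2 with quantile normalization), with BID rising in SKBR3-labelled cells (0.72, difference -0.84, adjusted p = 9.66e-05) and cytochrome c (CYCS) falling there (-0.50, difference 0.49, adjusted p = 0.000454).

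**Figure D4:**
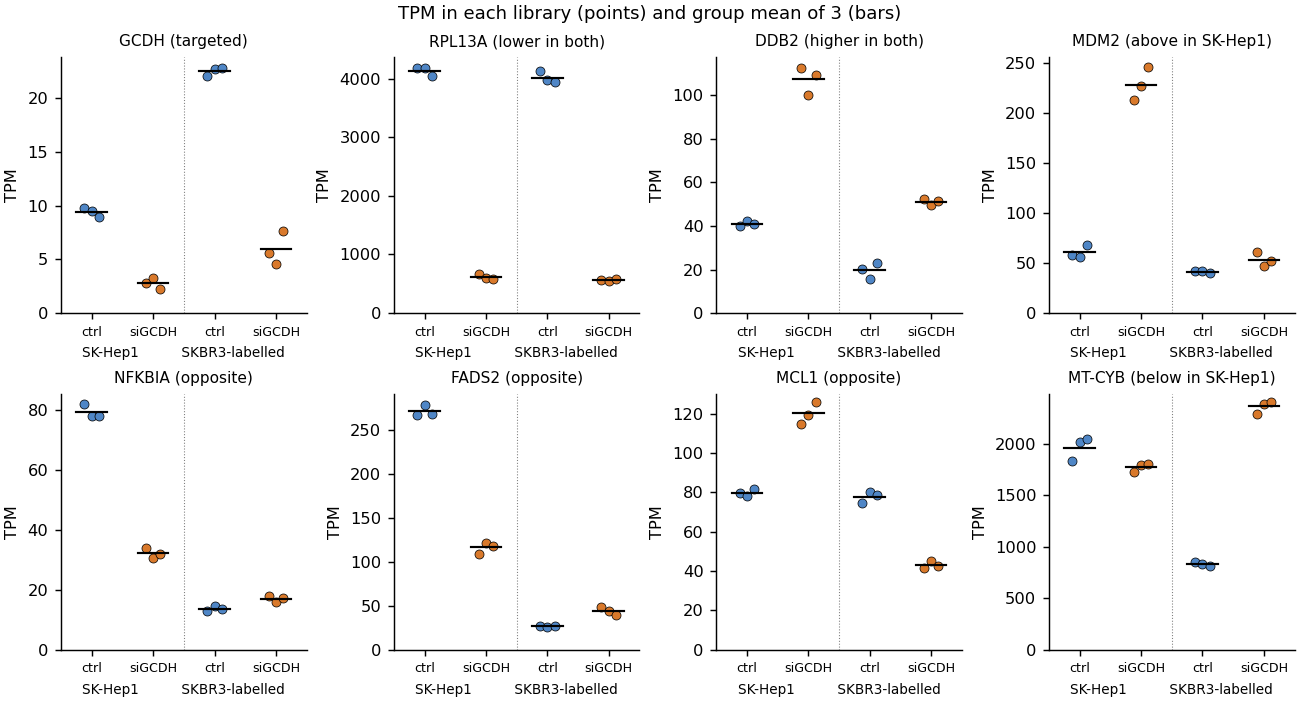
Points are TPM in each of the 12 libraries and bars are means of 3, with a linear axis from 0 in each of 8 panels. RPL13A fell to a similar level in both lines, DDB2 rose in both, MDM2 rose mainly in SK-Hep1, and MCL1 and FADS2 moved in opposite directions, as NFKBIA did before scaling.

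Nuclear and mitochondrial genes of the respiratory chain had differences of contrary sign. Of 46 nuclear-encoded oxidative phosphorylation genes, 28 rose in SK-Hep1 (against 35.5% of all genes) and 20 fell in SKBR3-labelled cells (14.7%), with medians of 0.22 and -0.08. Median scaling made these 18 and 35, and the falls in SKBR3-labelled cells were 15 without mitochondrial rows and 14 with quantile normalization. The difference was above in SK-Hep1 for 33 and below for 2, against 14.5% and 25% of all genes (20 and 3 with quantile normalization). COX8A, a subunit of cytochrome oxidase, had effects of 0.18 and -0.55 (difference 0.73, limma adjusted p = 5.22e-06), and SDHA, the flavoprotein of complex II, 0.47 and -0.08 (difference 0.56, adjusted p = 1.98e-05). NDUFA2 of complex I fell in both (-0.80 and -1.06) and COX6A1 had 0.38 and 0.27, the last of which shrank to 0.03 with median scaling, where both differences passed (0.38 for NDUFA2 and 0.23 for COX6A1). The SK-Hep1 rise of COX8A did not pass there (0.06). All 13 mitochondrially encoded genes rose in SKBR3-labelled cells and had a difference below in SK-Hep1, with medians of 0.00 and 1.28. The share of TPM from these transcripts rose in the same libraries from 2.06 ± 0.06% to 4.88 ± 0.11% (SD, n = 3), and its part in the nuclear genes' values was not tested.

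MT-CYB, the mitochondrially encoded cytochrome b, shows that shift by library. It stood in SK-Hep1 at 1827, 2013 and 2042 TPM with siControl and 1726, 1789 and 1805 TPM with siGCDH. In SKBR3-labelled cells MT-CYB stood at 848, 829 and 816 TPM with siControl and 2288, 2387 and 2404 TPM with siGCDH. The SKBR3-labelled groups were far apart and those of SK-Hep1 nearly touched, and the difference was -1.65 (limma adjusted p = 4.91e-08). MT-ATP6 and MT-CO3 had differences of -1.53 and -1.20. Removal of the mitochondrial rows left the nuclear list at 32 above and 2 below.

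Proteasome subunits were also mostly above in SK-Hep1 where they differed. Of 31 tested, 16 were above in SK-Hep1 and 1 below, against 14.5% and 25% of all genes (9 and 4 with quantile normalization), with median effects of 0.22 and 0.03. PSMD1 had effects of 0.36 and -0.13 (difference 0.48, limma adjusted p = 2.53e-05), and PSMC5, an ATPase of the cap, rose in both (0.51 and 0.45), with a difference that passed only with median scaling (0.19). PSMD11, whose UTR holds ATCCTCA, fell in both (-1.11 and -1.20).

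**Figure D5:**
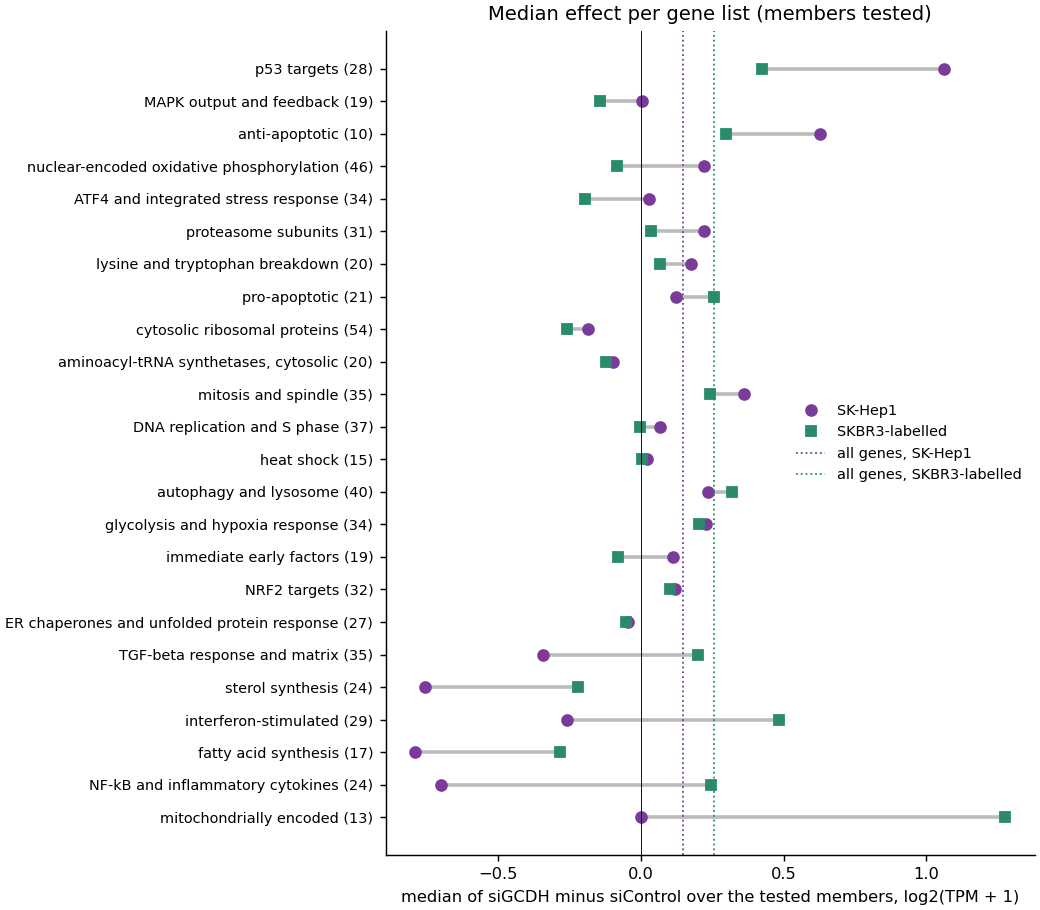
Each row is a gene list with the number of members tested, placed by the median siGCDH effect (log2(TPM + 1)) in SK-Hep1 (circles) and SKBR3-labelled cells (squares), with dotted lines at the medians of all genes, 0.15 and 0.26. Lists at the top have the highest difference, led by p53 targets, and those at the bottom the lowest.

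Inflammatory genes fell in SK-Hep1. Of 24 NF-kB and cytokine genes, 16 fell in SK-Hep1 (background 17.0%) and 1 in SKBR3-labelled cells (14.7%), with medians of -0.70 and 0.25. The difference was below in SK-Hep1 for 17 and above for 1, IL1B, against 25% and 14.5% of all genes. With quantile normalization 5 of the 24 fell in SKBR3-labelled cells, and 14 differences were below and 1 above. Members near 0 TPM in SKBR3-labelled cells pass the level filter through SK-Hep1 alone and cannot fall further. The contrast of these counts may therefore be partly set by the filter. NFKBIA, the inhibitor that NF-kB itself induces, stood in SK-Hep1 at 82, 78.1 and 78.1 TPM with siControl and 33.9, 30.7 and 31.9 TPM with siGCDH. SKBR3-labelled libraries held it at 13, 14.7 and 13.6 TPM with siControl and 17.9, 15.8 and 17.3 TPM with siGCDH. The groups did not overlap in either line, and the difference was -1.57 (SE 0.09, limma adjusted p = 8.6e-07). The small rise in SKBR3-labelled cells did not pass with median scaling (0.06), and the 8 genes of this list called in opposite directions then became 3.

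Several of these genes were expressed in SK-Hep1 alone. The chemokine CCL2 went from 17.7 ± 1.3 to 1.45 ± 0.211 TPM in SK-Hep1 and was listed at 0 in all 6 SKBR3-labelled libraries. Interleukin 6 (IL6) went from 34.8 ± 0.557 to 5.32 ± 0.524 TPM in SK-Hep1 and was at or under 0.24 TPM in the SKBR3-labelled libraries, and ICAM1, an adhesion receptor chosen after its values were seen, went from 34.6 ± 1.68 to 11.5 ± 1.08 TPM against from 0.163 ± 0.127 to 0.970 ± 0.713 TPM. For these the difference says only that they fell where they were expressed. NFKBIE, another inhibitor, was lower in both (-0.59 and -0.49), but its fall in SKBR3-labelled cells did not pass without the third siControl library (-0.37) or the second siGCDH library (-0.40) of that line. TRAF1, an adaptor of TNF receptors, rose in both (0.46 and 0.85) at levels under 4 TPM, and neither rise passed with quantile normalization (0.25 and 0.18).

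Interferon-stimulated genes were also below in SK-Hep1. Of 29 tested, 14 fell and 2 rose in SK-Hep1, against 17.0% and 35.5% of all genes. In SKBR3-labelled cells 17 rose and 0 fell, against 45.9% and 14.7%. The medians were -0.26 and 0.48. The difference was below in SK-Hep1 for 19 and above for 0, against 25% and 14.5% of all genes. With quantile normalization these were 17 and 0, and 10 rises and 6 falls were left in SKBR3-labelled cells. IRF1, a transcription factor of this response, went from 71.4 ± 3.45 to 39.4 ± 2.16 TPM in SK-Hep1 (effect -0.84) and from 6.27 ± 0.175 to 7.5 ± 0.403 TPM in SKBR3-labelled cells (difference -1.07, limma adjusted p = 1.09e-05). With median scaling its effect in SKBR3-labelled cells was 0.01. PSMB9, an immunoproteasome subunit, had -0.21 and 1.42 (difference -1.63, adjusted p = 2.65e-05), where only the SKBR3-labelled value passed and the level there stayed under 4 TPM.

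Of 24 sterol synthesis genes 18 fell in SK-Hep1, 14 in SKBR3-labelled cells and 12 in both, against 17.0%, 14.7% and 8.55% of all genes, with medians of -0.76 and -0.22. The difference was below in SK-Hep1 for 17 (against 25% of all genes) and above for 1 (14.5%), the latter INSIG1. With median scaling 20 fell in SK-Hep1, 18 in SKBR3-labelled cells and 17 in both, and 14 differences were below and 2 above. FDPS, a farnesyl diphosphate synthase, stood in SK-Hep1 at 309.5, 295 and 285 TPM with siControl and 149, 140.0 and 145 TPM with siGCDH. In SKBR3-labelled cells FDPS stood at 240.4, 237 and 231 TPM with siControl and 221, 243 and 223 TPM with siGCDH. It fell in SK-Hep1 without overlap (-1.03), and the SKBR3-labelled groups overlapped (-0.05, difference -0.98, limma adjusted p = 1.63e-06). Lanosterol synthase LSS went opposite ways (-0.66 and 0.62, difference -1.28, adjusted p = 3.18e-06). ACAT2 fell in both (-0.80 and -0.54), with a difference that passed only without the third siGCDH library of SKBR3-labelled cells (-0.34).

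Of 17 fatty acid synthesis genes, 12 fell in SK-Hep1, 9 in SKBR3-labelled cells and 8 in both, against 17.0%, 14.7% and 8.55% of all genes, with medians of -0.79 and -0.28. In SKBR3-labelled cells 4 others rose. The difference was below in SK-Hep1 for 11 (against 25% of all genes) and above for 1 (14.5%), the elongase ELOVL6. ACLY, which makes cytosolic acetyl-CoA, stood in SK-Hep1 at 243, 250.1 and 250.1 TPM with siControl and 39.9, 43.2 and 49.3 TPM with siGCDH. In SKBR3-labelled cells ACLY stood at 279, 269.6 and 271 TPM with siControl and 136, 124 and 137 TPM with siGCDH. It fell in both, by far more in SK-Hep1 (difference -1.42, limma adjusted p = 1.63e-06). FADS2, a desaturase of polyunsaturated fatty acids, went from 272 ± 6.5 to 116 ± 6.46 TPM in SK-Hep1 and from 26.7 ± 0.736 to 44.1 ± 4.87 TPM in SKBR3-labelled cells, a difference of -1.91 (adjusted p = 4.61e-07). SCD5, a stearoyl-CoA desaturase, rose in SKBR3-labelled cells (1.48, against 0.07 in SK-Hep1, difference -1.41, adjusted p = 1.28e-06).

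Of 35 genes of the TGF-beta response and matrix 17 fell in SK-Hep1 (against 17.0% of all genes) and 4 in SKBR3-labelled cells (14.7%), with medians of -0.34 and 0.20. The second count depended on the scaling: 9 fell in SKBR3-labelled cells with median scaling, and 14 with quantile normalization, where the median there was -0.09 and 18 fell in SK-Hep1. The difference was below in SK-Hep1 for 19 and above for 4, against 25% and 14.5% of all genes (14 and 7 with quantile normalization). Fibronectin, FN1, went from 376 ± 20.3 to 106 ± 1.6 TPM in SK-Hep1 and from 10.2 ± 2.06 to 10.3 ± 1.45 TPM in SKBR3-labelled cells (difference -1.84, limma adjusted p = 1.68e-05). The collagen COL6A2 had effects of -0.49 and 0.32 (difference -0.81, adjusted p = 5.85e-05), the second of which was 0.08 with median scaling. THBS1, thrombospondin 1, fell in SK-Hep1 (-1.23) and was under 1 TPM in all SKBR3-labelled libraries. Such a gene passes the level filter through SK-Hep1 alone, so the counts of this list may be partly set by the filter. The integrin ITGB1 rose in both (0.39 and 0.36), the second not passing with median scaling (0.12). Laminin LAMC1 fell in both (-0.50 and -0.80), with a difference that passed with median scaling (0.42) and without the first siGCDH library of SKBR3-labelled cells (0.43).

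The ATF4 list was divided within itself. Of 34 genes 12 fell in both lines and 5 rose in both (against 8.55% and 23.4% of all genes), and the difference was above in SK-Hep1 for 17 and below for 4 (14.5% and 25%), with medians of 0.03 and -0.20. ATF4 stood in SK-Hep1 at 369, 369.8 and 378 TPM with siControl and 392, 376 and 378 TPM with siGCDH. Its level in SKBR3-labelled cells was 1069, 1069 and 1046 TPM with siControl and 922, 934 and 910.2 TPM with siGCDH. The SK-Hep1 groups overlapped and the SKBR3-labelled ones did not (difference 0.24, limma adjusted p = 0.000479, and 0.07 with adjusted p = 0.226 under quantile normalization). STC2, a secreted glycoprotein, rose in SK-Hep1 (0.99) and fell in SKBR3-labelled cells (-0.56, difference 1.55, adjusted p = 2.75e-06). PSAT1, of serine synthesis, went from 369.7 ± 10.8 to 128 ± 5.57 TPM in SKBR3-labelled cells and was under 0.1 TPM in SK-Hep1.

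Other members of the ATF4 response gave mixed values. DDIT3, encoding the factor CHOP, rose in both (0.66 and 0.86, difference -0.21, limma adjusted p = 0.228). ATF3 fell in SKBR3-labelled cells (-1.09) and had -0.41 in SK-Hep1, a value that did not pass without the first (-0.26) or the second (-0.33) siGCDH library or without any 1 of the siControl libraries (-0.36 to -0.44). The glutathione-degrading enzyme CHAC1 fell in SKBR3-labelled cells (from 10.5 ± 3.45 to 3.11 ± 0.577 TPM) and had an effect of 0.24 in SK-Hep1 (difference 1.69, adjusted p = 0.00126). TRIB3, a pseudokinase, fell in SK-Hep1 (-0.61) against 0.37 (difference -0.98, adjusted p = 2.29e-05). Cytosolic aminoacyl-tRNA synthetases, 20 in number, had 6 differences above and 4 below, against 14.5% and 25% of all genes. With quantile normalization these were 2 and 5. Seryl-tRNA synthetase SARS1 had a difference of 0.46 and isoleucyl-tRNA synthetase IARS1 one of -0.40.

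NRF2 targets did not move as a block. NFE2L2 stood in SK-Hep1 at 76.1, 81.8 and 81.2 TPM with siControl and 82.3, 83 and 90.0 TPM with siGCDH. In SKBR3-labelled cells NFE2L2 stood at 36.6, 38.2 and 37 TPM with siControl and 42.5, 45.7 and 48 TPM with siGCDH. Its effects were 0.09 and 0.28, and the difference of -0.18 did not pass (limma adjusted p = 0.0945). It passed without the first siGCDH library of SKBR3-labelled cells (-0.23, adjusted p = 0.0419) and without mitochondrial rows (-0.23, adjusted p = 0.0495), and the rise in SKBR3-labelled cells did not pass with median scaling (0.04). Of 32 targets 8 rose in both and 9 fell in both, against 23.4% and 8.55% of all genes, and with median scaling these were 3 and 9. The difference was above in SK-Hep1 for 9 and below for 12 (10 and 10 with median scaling), against 14.5% and 25%, and the median effects were 0.12 and 0.10.

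Single NRF2 targets moved strongly in contrary directions. HMOX1, heme oxygenase 1, chosen after its values were seen, stood in SK-Hep1 at 40.9, 43 and 40.2 TPM with siControl and 3.98, 3.86 and 5.78 TPM with siGCDH. SKBR3-labelled libraries held it at 25.2, 25.7 and 24.4 TPM with siControl and 3.6, 5.36 and 5.67 TPM with siGCDH. It fell in both without overlap (difference -0.78, limma adjusted p = 0.0125, and -0.20 with adjusted p = 0.544 under quantile normalization). Thioredoxin reductase TXNRD1 went from 696 ± 33.8 to 343 ± 24.8 TPM and from 113 ± 3.16 to 93.2 ± 1.23 TPM, falling more in SK-Hep1 (difference -0.74, adjusted p = 2.95e-05). The autophagy receptor SQSTM1 rose more in SKBR3-labelled cells, from 75.2 ± 2.55 to 199 ± 2.0 TPM against from 418 ± 19.1 to 512 ± 4.75 TPM in SK-Hep1 (difference -1.10, adjusted p = 3.77e-07). NQO1, a quinone reductase also chosen after its values were seen, went from 6.44 ± 1.84 to 15.6 ± 0.845 TPM in SKBR3-labelled cells and was under 1 TPM in SK-Hep1.

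Of 19 genes of MAPK output and feedback 11 had a difference above in SK-Hep1 and 3 below, against 14.5% and 25% of all genes (9 and 3 without mitochondrial rows, 13 and 0 with quantile normalization), with medians of 0.00 and -0.14. Cyclin D1, CCND1, stood in SK-Hep1 at 119, 121 and 115 TPM with siControl and 336, 364 and 369 TPM with siGCDH. In SKBR3-labelled cells it stood at 23.4, 22.8 and 21.7 TPM with siControl and 36.4, 29.3 and 28.2 TPM with siGCDH, and the difference was 1.14 (limma adjusted p = 3.12e-05). MYC went from 103 ± 3.75 to 39.7 ± 1.7 TPM and from 168 ± 1.94 to 36.8 ± 0.945 TPM, falling in both and further in SKBR3-labelled cells (difference 0.81, adjusted p = 5.77e-06). Of 19 immediate early genes 7 were above and 6 below. The immediate early factor JUN rose in SK-Hep1 (0.42) and fell in SKBR3-labelled cells (-0.17), and IER5 and the orphan receptor NR4A1 had differences of 1.02 and 1.13.

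Of 27 ER chaperone and unfolded protein response genes, 16 had a called difference, 5 above in SK-Hep1 and 11 below, and of 15 heat shock genes 8 had one, 4 above and 4 below, against 39.5% of all genes in either direction. With median scaling these became 6 above and 5 below, and 6 above and 2 below. HSPA5, the ER chaperone BiP, fell in SK-Hep1 (-0.67, against -0.05, difference -0.62, limma adjusted p = 3.36e-06). HSPA8, the constitutive HSP70, fell in SK-Hep1 (-0.57, against 0.04), whereas HSP90AB1 fell in both (-0.59 and -0.52), with a difference that passed only without mitochondrial rows (-0.11). HSPA4L had a difference of 1.05.

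Of 40 autophagy and lysosome genes 19 rose in both and 2 fell in both, against 23.4% and 8.55% of all genes, and with median scaling these were 11 and 7. The difference was above in SK-Hep1 for 3 and below for 11, against 14.5% and 25% of all genes (10 and 9 with median scaling). OPTN, an autophagy receptor, rose in SKBR3-labelled cells (1.23, difference -1.15, adjusted p = 2.4e-06), cathepsin B (CTSB) rose in SK-Hep1 (0.96, against 0.18, difference 0.77), and ATG9A, a scramblase of the autophagosome membrane, fell in both (-1.40 and -1.12), with a difference that passed only without the third siGCDH library of SK-Hep1 (-0.36). Of 34 glycolysis and hypoxia genes 15 rose in both and 5 fell in both, against 23.4% and 8.55% of all genes, and with median scaling 7 rose and 7 fell. The difference was above for 7 and below for 14 (12 and 9 with median scaling), with ENO2, an enolase, at -1.12 and the phosphofructokinase PFKP at -0.56.

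The pathway of GCDH itself had few shared changes. Of 20 genes of lysine and tryptophan breakdown 8 had a difference above in SK-Hep1 and 3 below, against 14.5% and 25% of all genes (5 and 3 without mitochondrial rows), and GCDH was the only one that fell in both lines. ALDH7A1, which acts upstream in lysine breakdown, stood in SK-Hep1 at 125, 114 and 108 TPM with siControl and 195, 205 and 206 TPM with siGCDH. Its level in SKBR3-labelled cells was 109, 116 and 111 TPM with siControl and 115, 118 and 109 TPM with siGCDH, groups that overlap, and the difference was 0.78 (limma adjusted p = 3.05e-05). DHTKD1, which makes the glutaryl-CoA that GCDH uses, had effects of -0.02 and -0.14 and a difference of 0.12 (95% interval -0.30 to 0.54). ETFDH, which passes electrons from GCDH to ubiquinone, rose in both (0.48 and 0.80), its difference passing only without the third siGCDH library of SK-Hep1 (-0.43), and DLST, of the 2-oxoglutarate and 2-oxoadipate dehydrogenases, had a difference of -0.32 (adjusted p = 0.00628).

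The larger differences were mostly in genes that did not reach 5 TPM in both lines. Of the 324 called differences of at least 1 log2 unit above in SK-Hep1, 143 were in genes that did. Of the 1543 such differences below, 353 were. Among called differences of any size, the genes reached 5 TPM in both lines for 1922 of 2384 above (80.6%) and 2202 of 4120 below (53.4%). Of those 4120, 1056 reached it in SKBR3-labelled cells alone. The share over all genes was not counted. DMBT1, a scavenger receptor, went from 2.64 ± 0.333 to 28.6 ± 0.845 TPM in SK-Hep1 (difference 2.99, limma adjusted p = 3.74e-07) and the cation channel TRPV2 from 7.96 ± 1.29 to 77.3 ± 1.71 TPM (difference 2.59, adjusted p = 4.59e-05). DNER, a Notch ligand relative, went from 54.9 ± 2.32 to 272 ± 2.99 TPM, keratin KRT15 from 16.9 ± 2.75 to 80.9 ± 2.07 TPM, and ADTRP from 2.77 ± 0.709 to 17.5 ± 3.06 TPM, with differences of 2.05, 2.18 and 2.28. TH, tyrosine hydroxylase, and the folate receptor FOLR3 had 2.06 and 2.05. All 7 stayed under 3 TPM in the SKBR3-labelled libraries. SLC35F1 was the reverse, listed at 0 in SK-Hep1 and falling from 13.9 ± 0.615 to 1.62 ± 0.319 TPM in SKBR3-labelled cells, with a difference of 2.51.

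The lowest differences were of 3 kinds. The epithelial factor ELF3 (from 52.5 ± 1.14 to 3.43 ± 0.973 TPM) and the chemokine CXCL6 (from 35.8 ± 1.22 to 2.51 ± 0.171 TPM) fell in SK-Hep1 and were under 1 TPM in SKBR3-labelled cells, with differences of -3.87 and -3.35. The histone genes H3C10 and H2BC21, the dynein light chain DYNLT2 and the noncoding LINC01976 rose in SKBR3-labelled cells from under 7 TPM, to means of 37.4, 33.3, 63.7 and 72.7 TPM, with differences of -3.67, -3.66, -3.41 and -3.60. The histone sum and the number of noncoding rows also rose in those libraries, and a link between these rises was not tested. Of 20 histone rows whose messages normally lack a poly(A) tail, 8 passed the level filter. All 8 had a difference below in SK-Hep1, against 25% of all genes, with medians of -0.36 and 1.5. A gene can pass that filter only through the libraries where it is high, so this shared direction may be partly set by the filter. The part of poly(A) selection in these values was not tested.

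The last kind were genes called in opposite directions at 5 TPM or more in both lines. Integrin ITGB4 fell from 226, 229 and 226 to 66.5, 69.1 and 59.9 TPM in SK-Hep1 and rose from 2.52, 0.71 and 0.52 to 6.97, 6.92 and 9.46 TPM in SKBR3-labelled cells (difference -3.85, limma adjusted p = 1.59e-05). The complement protease C1R stood in SK-Hep1 at 39.1, 41.9 and 37.8 TPM with siControl and 7.97, 8.56 and 9.15 TPM with siGCDH. In SKBR3-labelled cells C1R stood at 2.07, 2.02 and 3.07 TPM with siControl and 5.88, 8.22 and 6.45 TPM with siGCDH (difference -3.30, adjusted p = 7.17e-07). Fibrillin FBN1 went from 10.8 ± 0.618 to 3.74 ± 0.538 TPM and from 7.52 ± 0.237 to 14.8 ± 0.515 TPM, TMEM45A from 7.16 ± 0.288 to 2.21 ± 0.510 TPM and from 9.63 ± 2.09 to 22.3 ± 1.72 TPM, with differences of -2.21 and -2.51. Adrenomedullin, ADM, went from 92.2 ± 4.27 to 24.9 ± 1.7 TPM in SK-Hep1 and from 8.52 ± 1.69 to 12.4 ± 1.32 TPM in SKBR3-labelled cells (difference -2.35), where the rise did not pass with median scaling (0.29, adjusted p = 0.0585). SNHG19, a small nucleolar RNA host gene, rose in SKBR3-labelled cells (from 147 ± 18.7 to 525 ± 10.6 TPM, difference -2.11), and its fall in SK-Hep1 (-0.28) did not pass without the second (-0.25) or the third (-0.27) siControl library or the third siGCDH library (-0.20).

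A375 cells of the same kit have their own controls. Of the 3510 shared rises tested there 787 rose (22.4%, against 18% of all genes tested in both fits) and 536 fell (15.3%, against 16.6%). Of the 1372 shared falls 343 fell (25%, against 16.6%) and 280 rose (20.4%, against 18%). DDB2 had an effect of 0.58 there, MDM2 1.57, NDC80 -0.51, SLC7A5 -0.14 and HMOX1 1.09, beside the values of both lines above.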

How the data were processed

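Poly(A)-selected RNA was sequenced single-end from 12 libraries in 4 groups of 3. Values are TPM as deposited by the authors, made with cutadapt 2.3, STAR 2.7.0d and RSEM 1.3.1 on hg38, per the submitters' processing notes. The sources used here name neither an annotation version nor a strand setting. These values keep no totals, so depth is unknown and no counting interval is given. Genes averaging 1 TPM or more over the 12 libraries were fitted as log2(TPM + 1) in limma 3.58.1 (R 4.3.3) with 4 groups and contrasts for each line and their difference. P-values were Benjamini-Hochberg adjusted over all 16480 genes and called under 0.05. GCDH also had an exact permutation test. The fit was tested on simulated data. A375 batch 2 was fitted alone. UTRs were read from GENCODE release 29 with Python 3.11.15, and 7-mers were ranked by effects adjusted for UTR length and base composition, an adjustment added to the planned ranking.

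Genes were named by rule as the target, the largest called differences in genes whose groups did not overlap in a line, the largest opposite calls and the largest even shared calls with a group mean of at least 5 TPM, the leading different and shared member of each list, and a stress panel. CDKN1A, HMOX1, NQO1 and ICAM1 were added after their values were seen, as were ELOVL6, IL1B and INSIG1. The members and lists were chosen with earlier results of these data known. Alternatives were other pseudocounts and filters, quantile normalization, median scaling, removal of mitochondrial rows, other limma settings, a replicate block, a joint fit and leaving out each library. A fit on coding rows alone was added after seeing the data. Some named members are not reported here.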

Additional observations from a re-analysis of the deposited data

Results flagged for a closer look

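The siGCDH effects in the lines differed by the limma test of the difference itself for the genes here, which are the largest of their kind, and the other named differences stand in the text above. Above in SK-Hep1 were DMBT1 (2.99), TRPV2 (2.59), SLC35F1 (2.51), ADTRP (2.28), KRT15 (2.18), TH (2.06), FOLR3 (2.05) and DNER (2.05), all as log2 differences. Below were ELF3 (-3.87), ITGB4 (-3.85), H3C10 (-3.67), H2BC21 (-3.66), LINC01976 (-3.60), DYNLT2 (-3.41), CXCL6 (-3.35) and C1R (-3.30). Among genes called in opposite directions were TMEM45A (-2.51), ADM (-2.35), FBN1 (-2.21) and SNHG19 (-2.11). Groups of 3 libraries were too small to look for single outlying libraries.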

How the results depend on the processing

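Of 401 named results, 324 kept their direction and side of the threshold under all 25 alternatives that gave them a value. Those that did not were 5 of 97 differences that passed, 31 of 51 differences that had not passed and 41 of 253 effects within a line. Of those 51, most from genes that changed the same way in both lines, 15 passed with median scaling, 12 with quantile normalization and 4 without mitochondrial rows. Quantile normalization and median scaling changed the most. Shared rises numbered 2002 with quantile normalization and 2170 with median scaling, and shared falls 2209 and 2221. Quantile normalization reversed effects in SKBR3-labelled cells for TRPV2 (-0.105), CALR (0.0205), BBC3 (-0.0646), FOSL1 (-0.463), NFKBIA (-0.0295) and IRF1 (-0.302), and in SK-Hep1 for MT-CYB (0.0854). Median scaling reversed HSP90AA1 (-0.0484) and CTSB (-0.0548) in SKBR3-labelled cells. Differences that had not passed took the other sign and passed for RPL13A (-0.237), RPL6 (-0.293), NR2F6 (0.348) and HSP90AA1 (-0.171) with quantile normalization and for DEPP1 (0.848) with a pseudocount of 0.1, under which the difference of FOLR3 no longer passed (2.47). The cause was not tested.

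Leaving out 1 library at a time gave 2102 to 2362 differences above and 3760 to 3929 below in SK-Hep1, 3484 to 3813 shared rises, 1300 to 1366 shared falls and 602 to 640 opposite calls. With a replicate block these counts were 2211, 3823, 3720, 1358 and 640. Same-numbered libraries correlated in their deviations at -0.01 to 0.06, and differently numbered ones at -0.05 to 0.04. With 3 libraries a group, such small values cannot settle whether the wells were paired. The main fit took them as unpaired. Depth is unknown, so no counting limit can be given.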
